A study of Homo sapiens with 10 samples.

Results

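The 10 genes described here make, recycle, break down and export glutathione: *GCLC*, *GCLM*, *GSS*, *GSR*, *CHAC1*, *CHAC2*, *GGCT*, *OPLAH*, *GGT7* and *ABCC1*. They were taken by gene symbol from 78894 Ensembl gene IDs, and all 10 were matched. Their transcripts were measured by poly(A) RNA-seq in cells of the established line HEK293T, derived from human embryonic kidney, in media labelled 0X-Cys (2 libraries), 1X-Cys (4 libraries) and 10X-Cys (4 libraries). These stand for cysteine-free, complete and excess cysteine medium, and the question was whether transcripts respond to cysteine starvation. Culture in each of the 3 media lasted 24 h. The cells carried no genetic change named in the labels. The methods also describe a starvation protocol with dialyzed serum, and the serum of these libraries was not given in the sources used here.

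Glutathione is a tripeptide of glutamate, cysteine and glycine and the main small thiol of the cytosol. Glutamate-cysteine ligase, a catalytic subunit (*GCLC*) with a modifier subunit (*GCLM*), joins the first pair of amino acids, and glutathione synthetase (*GSS*) adds glycine. Glutathione reductase (*GSR*) returns the oxidized form to the reduced one, the ChaC enzymes (*CHAC1*, *CHAC2*) cleave glutathione in the cytosol, and ATF4 and NRF2 are transcription factors known to induce *CHAC1* and the ligase subunits, respectively.

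Promoter windows from 250 bases before to 50 after the transcription start were found in the RefSeq table (GRCh38.p14) for 5 of the 10 genes, *GCLM*, *GCLC*, *CHAC1*, *CHAC2* and *GGT7*. The windows of the ligase subunits and the ChaC pair are shown because the genes of each pair differed in their response to the media. Capitals mark matches to TGATGNAA, the core of the composite site of ATF4 and C/EBP proteins, or TGACNNNGC, the core of the antioxidant response element, searched on both strands. Both motifs were chosen after the values were seen.
GCLM, chr1:93909381-93909680, minus strand: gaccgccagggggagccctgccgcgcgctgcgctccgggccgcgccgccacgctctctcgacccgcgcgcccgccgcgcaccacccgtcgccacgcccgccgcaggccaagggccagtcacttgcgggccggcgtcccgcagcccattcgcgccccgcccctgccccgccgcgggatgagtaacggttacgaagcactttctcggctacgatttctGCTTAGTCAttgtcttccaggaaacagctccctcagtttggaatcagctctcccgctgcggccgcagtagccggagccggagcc
GCLC, chr6:53545052-53545351, minus strand: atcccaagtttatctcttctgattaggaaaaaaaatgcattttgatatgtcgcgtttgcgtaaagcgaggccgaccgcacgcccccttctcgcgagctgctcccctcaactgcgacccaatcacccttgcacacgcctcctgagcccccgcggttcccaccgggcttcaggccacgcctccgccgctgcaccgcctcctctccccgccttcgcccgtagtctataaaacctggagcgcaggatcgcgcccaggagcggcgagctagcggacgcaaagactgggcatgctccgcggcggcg
CHAC1, chr15:40953221-40953520, plus strand: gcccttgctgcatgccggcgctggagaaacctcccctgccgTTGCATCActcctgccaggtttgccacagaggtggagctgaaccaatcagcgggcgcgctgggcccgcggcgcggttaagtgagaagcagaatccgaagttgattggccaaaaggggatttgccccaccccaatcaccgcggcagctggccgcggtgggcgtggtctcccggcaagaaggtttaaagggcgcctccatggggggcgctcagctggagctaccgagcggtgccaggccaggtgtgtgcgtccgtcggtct
CHAC2, chr2:53767533-53767832, plus strand: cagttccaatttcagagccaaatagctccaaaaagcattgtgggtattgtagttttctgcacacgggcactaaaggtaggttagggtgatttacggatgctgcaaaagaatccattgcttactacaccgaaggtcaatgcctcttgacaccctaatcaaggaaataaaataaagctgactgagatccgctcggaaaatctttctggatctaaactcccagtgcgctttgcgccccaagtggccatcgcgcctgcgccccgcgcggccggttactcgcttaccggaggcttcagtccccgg
The *CHAC1* window held 1 match to the ATF4 core, as its reverse complement, beginning 209 bases before the start. Of 34943 windows of the same length, 3.62% held such a match. The *GCLM* window held 1 match to the antioxidant core, also as its reverse complement, beginning 34 bases before the start, and 13.3% of all windows held one. The 2 matches lie in different windows and do not overlap. The windows of *GCLC*, *CHAC2* and *GGT7* held neither set of letters. The starts are those of RefSeq, and the windows of *GCLC* and *CHAC1* lie wholly within the gene bounds given below. Sequence before the outermost annotated starts of these genes was not searched. A match is a description of the sequence and does not show binding.

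Values are normalized counts, that is, reads per gene divided by a size factor of the library. The libraries held between 34836014 and 61654861 reads on genes. All 6 HEK293T markers examined were detected, with summed normalized counts of 47823 to 54493 in 1X-Cys and 56069 to 59052 in 10X-Cys. Markers of HepG2, Jurkat and SKBR3 cells, other lines of the study, were at or near 0 in 1X-Cys, but the 4 SKBR3 markers summed to 15.2 to 29.4 in 1X-Cys and to 131 to 167 in 10X-Cys, with *KRT7* at 0 in each library. Of 4 fibroblast markers, *COL1A1* had a mean of 911 in 1X-Cys and 649 in 10X-Cys, and *DCN* was at or near 0. Mitochondrial genes took 5.43% ± 0.397 (SD, n = 2) of the reads in 0X-Cys, 4.71% ± 0.250 (n = 4) in 1X-Cys and 0.129% ± 0.0129 (n = 4) in 10X-Cys. Beyond a scaling to equal totals over nuclear genes, given below, the part of this share in the results was not tested. In bulk RNA, fewer cells with a transcript and less of it per cell cannot be told apart.

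Of the 10 genes, 9 passed the filter of 10 or more in at least 3 libraries. Changes were tested with limma on log2 values over 29045 genes and a gene was called where its adjusted p did not exceed 0.01. Between 0X-Cys and 1X-Cys, 4 of the 9 genes were called, 2 higher and 2 lower in 0X-Cys, where 15.9% of all genes tested were called (7.39% higher and 8.51% lower). Between 10X-Cys and 1X-Cys, 7 of the 9 were called, 4 higher and 3 lower in 10X-Cys, against 46.0% of all genes (23.1% higher and 22.9% lower). Directly between 10X-Cys and 0X-Cys, 6 of the 9 were called, 4 higher and 2 lower in 10X-Cys, against 48.0% of all genes (24.4% higher and 23.6% lower). The comparisons share libraries, so their counts are not independent. The median log2 change of the 9 genes was -0.01, 0.04 and 0.04 in that order, beside 0.00, 0.01 and 0.00 over all genes tested.

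Scaling the libraries to equal totals moved the share of called genes that were higher in 10X-Cys from 50.3% to 61.8% against 1X-Cys and from 50.8% to 59.99% against 0X-Cys. In well-expressed genes it moved the median log2 change against 1X-Cys from -0.02 to 0.08. With equal totals over nuclear genes only, the shares were 54.5% against 1X-Cys and 51.1% against 0X-Cys. The median against 1X-Cys was then 0.02.

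**Figure D1:**
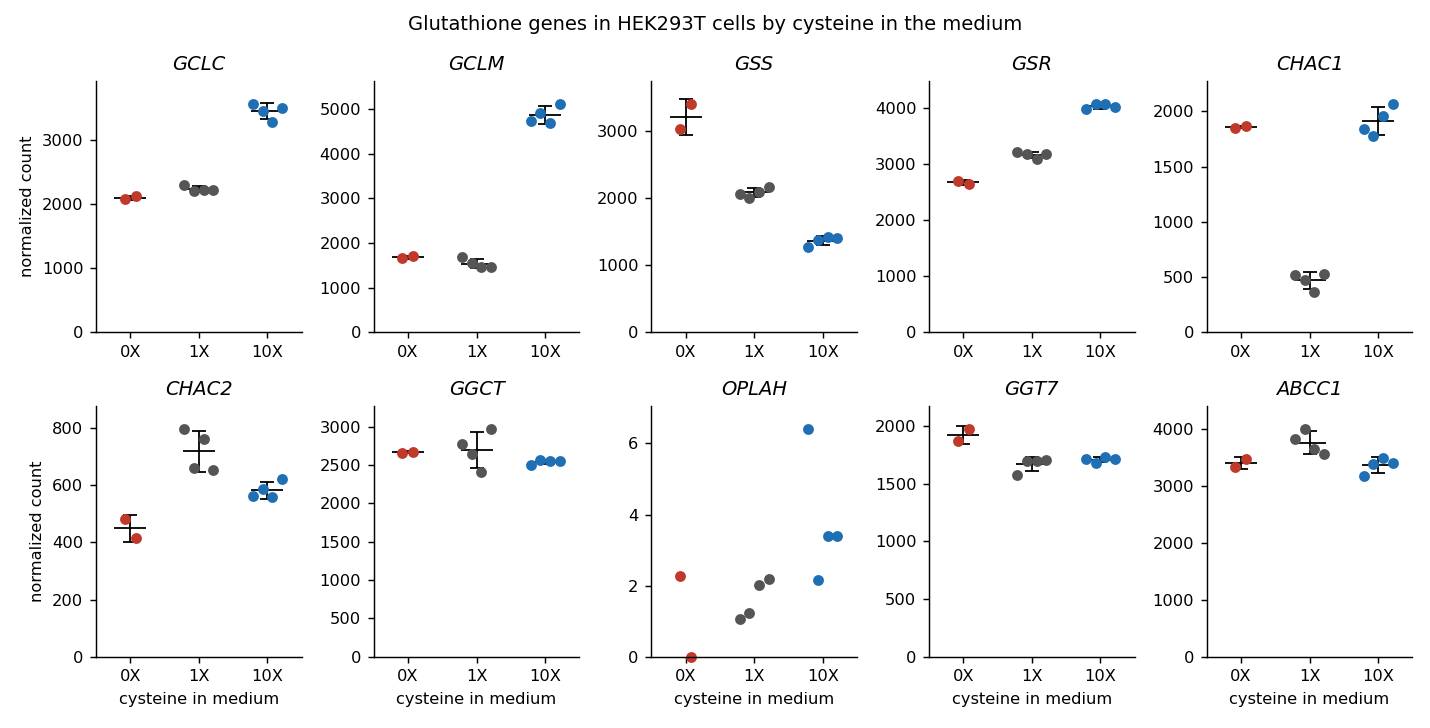
Normalized count (linear axis from 0, a scale of its own in each panel) of the 10 genes in each library by cysteine in the medium. Points are libraries (2 in 0X, 4 in 1X and 4 in 10X) and lines are the mean ± SD, left out for OPLAH, which had at most 10 reads in a library. GCLC and GCLM stood apart in 10X, CHAC1 was lowest in 1X, GSS fell from 0X to 10X and GSR rose.

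Among the genes of synthesis, the ligase subunits rose in 10X-Cys and were not called in 0X-Cys. *GCLM* (ENSG00000023909, chromosome 1, 93885199 to 93909456, minus strand), the modifier subunit, had normalized counts of 1653 and 1707 in 0X-Cys. In 1X-Cys the counts were 1681, 1542, 1463 and 1470. In 10X-Cys they were 4745, 4912, 4679 and 5118. Every 10X-Cys library lay above all others, while the 0X-Cys and 1X-Cys ranges overlapped. *GCLM* was 3.16-fold higher in 10X-Cys than in 1X-Cys (log2 change 1.66, SE 0.0517, adjusted p = 1.1e-13, limma). In 0X-Cys the log2 change against 1X-Cys was 0.13 with a 95% interval of -0.03 to 0.29 (adjusted p = 0.222, limma).

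*GCLC* (ENSG00000001084, chromosome 6, 53497341 to 53616970, minus strand), the catalytic subunit, had counts of 2082 and 2128 in 0X-Cys. The 1X-Cys libraries had 2306, 2215, 2220 and 2218, and the 10X-Cys libraries 3572, 3458, 3282 and 3511. The groups did not overlap, with 0X-Cys just under 1X-Cys and 10X-Cys well above. *GCLC* was 1.54-fold higher in 10X-Cys than in 1X-Cys (log2 change 0.63, SE 0.0436, adjusted p = 2.48e-09, limma), and the 0X-Cys change of -0.09 had an interval of -0.22 to 0.04 (adjusted p = 0.297). Of its 8618 exon bases, 834 are shared with 2 other annotated genes, among them *GCLC-AS1* on the opposite strand, whose mean was 416 in 1X-Cys and 621 in 10X-Cys. The strand setting of the counting was not given in the sources used here, so shared reads cannot be assigned. With the values of both overlapping genes subtracted, the log2 change of *GCLC* in 10X-Cys was 0.64. Where reads over several genes were discarded, as the methods describe, no shared reads remain for this subtraction to remove.

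The ratio of *GCLM* to *GCLC* counts within a library does not depend on scaling. It was 0.794 and 0.802 in 0X-Cys, 0.729, 0.696, 0.659 and 0.663 in 1X-Cys, and 1.33, 1.42, 1.43 and 1.46 in 10X-Cys. No ranges overlapped, and the 10X-Cys libraries were highest. Per kilobase of exon, over the merged length of all annotated exons, the ratio was above 1 in every library. It was 1.26 and 1.27 in 0X-Cys, 1.05 to 1.16 in 1X-Cys and 2.11 to 2.32 in 10X-Cys. This length was 8618 bases for *GCLC* and 5426 for *GCLM*, so which subunit was higher in 0X-Cys and 1X-Cys depends on it. The mean log2 ratio was 1.04 higher in 10X-Cys than in 1X-Cys (exact permutation test, 2-sided, p = 0.029, the smallest it can give, and 0.086 adjusted over 6 ratio tests). The difference was 0.22 between 0X-Cys and 1X-Cys and 0.82 between 10X-Cys and 0X-Cys. With 2 libraries against 4 the exact permutation test cannot go below p = 0.13, which both comparisons gave.

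*GSS* (ENSG00000100983, chromosome 20, 34928432 to 34956027, minus strand), glutathione synthetase, moved the other way. It had 3020 and 3399 counts in 0X-Cys. The 1X-Cys libraries had 2064, 2005, 2089 and 2166, and the 10X-Cys libraries 1267, 1366, 1412 and 1403. The groups were ordered 0X-Cys, 1X-Cys, 10X-Cys from high to low without overlap. *GSS* was 1.54-fold higher in 0X-Cys than in 1X-Cys (log2 change 0.62, SE 0.0667, adjusted p = 2.38e-05, limma) and fell to 65.4% of 1X-Cys in 10X-Cys (log2 change -0.61, SE 0.0514, adjusted p = 2.46e-08). Directly, 10X-Cys was lower than 0X-Cys by a log2 change of -1.23 (SE 0.0582, adjusted p = 4.57e-15).

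*GSR* (ENSG00000104687, chromosome 8, 30678066 to 30727846, minus strand), the reductase that regenerates glutathione, showed the reverse order of *GSS*. Its counts were 2699 and 2639 in 0X-Cys, 3200, 3181, 3087 and 3170 in 1X-Cys, and 3968, 4066, 4065 and 4013 in 10X-Cys. The groups did not overlap. *GSR* was higher in 10X-Cys than in 1X-Cys by a log2 change of 0.35 (SE 0.0387, adjusted p = 6.87e-07, limma) and lower in 0X-Cys by -0.24 (SE 0.0559, adjusted p = 0.00546). The 0X-Cys call did not hold under 8 of 20 alternatives, with a largest adjusted p of 0.0802 (limma without 0X-Cys replicate 2), and was also lost without 0X-Cys replicate 1 (adjusted p = 0.0482), 1X-Cys replicate 1 (0.0156) or 1X-Cys replicate 2 (0.0207).

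**Figure D2:**
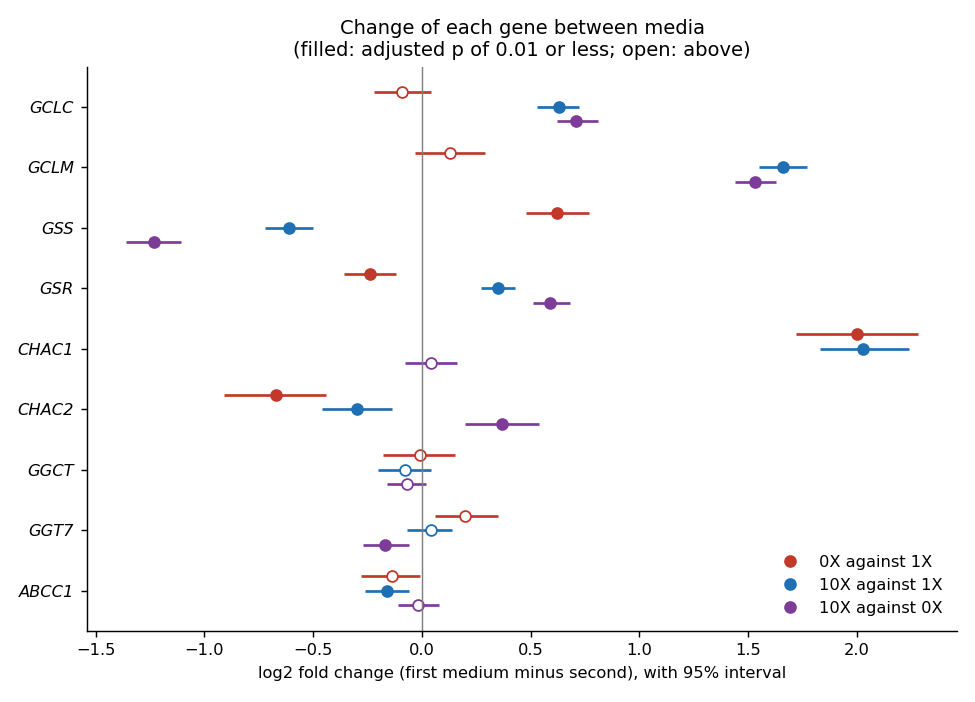
Log2 fold change of the 9 genes tested, with the 95% interval from limma, for 0X against 1X, 10X against 1X and 10X against 0X. Filled points have an adjusted p of 0.01 or less. GSS and GSR changed in opposite directions to each other, and CHAC1 lay near 2 against 1X in both media and near 0 between them.

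Among the genes of cytosolic breakdown, *CHAC1* was about 4 times higher in both altered media, while its paralog *CHAC2* was lower in both. *CHAC1* (ENSG00000128965, chromosome 15, 40952962 to 40956512, plus strand) had 1853 and 1865 counts in 0X-Cys. The 1X-Cys libraries had 522, 477, 359 and 523, and the 10X-Cys libraries 1842, 1780, 1959 and 2069. The 1X-Cys libraries lay far below all others, and the 0X-Cys values fell inside the 10X-Cys range. *CHAC1* was 3.99-fold higher in 0X-Cys (log2 change 2.00, SE 0.13, adjusted p = 3.91e-07, limma) and 4.10-fold higher in 10X-Cys (log2 change 2.03, SE 0.0977, adjusted p = 2.5e-11). The direct log2 change of 10X-Cys against 0X-Cys was 0.04 with an interval of -0.08 to 0.16 (adjusted p = 0.585).

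*CHAC2* (ENSG00000143942, chromosome 2, 53767804 to 53775196, plus strand) had 483 and 416 counts in 0X-Cys. The 1X-Cys libraries had 797, 658, 759 and 654, and the 10X-Cys libraries 560, 585, 558 and 622. All 1X-Cys libraries lay above the rest, and 0X-Cys lay below 10X-Cys. *CHAC2* fell to 62.7% of 1X-Cys in 0X-Cys (log2 change -0.67, SE 0.108, adjusted p = 0.000526, limma) and to 81.3% in 10X-Cys (log2 change -0.30, SE 0.0764, adjusted p = 0.00301). The 10X-Cys call was lost with equal totals (adjusted p = 0.0293), without 1X-Cys replicate 1 (0.0152), and without 10X-Cys replicate 1 (0.012) or 3 (0.0119). The 0X-Cys call was lost without 0X-Cys replicate 2 (adjusted p = 0.0268, limma). Between the altered media, *CHAC2* was higher in 10X-Cys by 0.37 (SE 0.0823, adjusted p = 0.000396), a call lost without 0X-Cys replicate 2 (0.0266).

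Within libraries, the ratio of *CHAC1* to *CHAC2* counts was 3.84 and 4.49 in 0X-Cys, 0.655, 0.724, 0.473 and 0.80 in 1X-Cys, and 3.29, 3.05, 3.51 and 3.33 in 10X-Cys. Per kilobase of exon, *CHAC2* exceeded *CHAC1* in each 1X-Cys library and in no other, with *CHAC1* at 229 ± 37.6 and *CHAC2* at 548 ± 55.1 normalized counts per kilobase in 1X-Cys (SD, n = 4), against 932 ± 62.4 and 444 ± 22.8 in 10X-Cys. The mean log2 ratio was 2.34 higher in 10X-Cys than in 1X-Cys (exact permutation test, 2-sided, p = 0.029, the smallest it can give, and 0.086 adjusted over 6 ratio tests). It was 2.67 higher in 0X-Cys than in 1X-Cys and 0.34 lower, as a difference of -0.34, in 10X-Cys than in 0X-Cys (exact permutation p = 0.13 for both, the smallest possible).

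**Figure D3:**
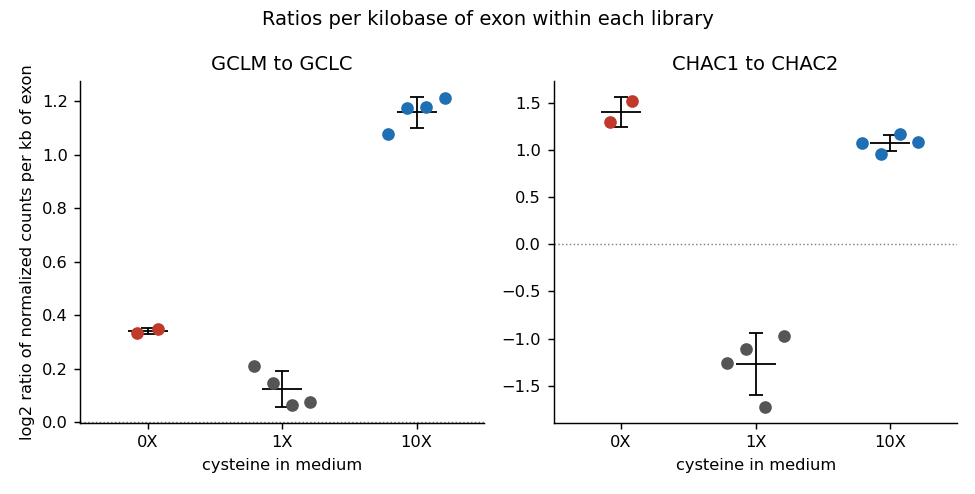
Log2 ratio of normalized counts per kilobase of exon within each library for GCLM to GCLC (left) and CHAC1 to CHAC2 (right) by cysteine in the medium. Points are libraries, lines are the mean ± SD, and the dotted line marks equal levels per kilobase. GCLM lay above GCLC in all 10 libraries and highest in 10X, and CHAC1 was below CHAC2 in the 4 libraries of 1X only.

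*GGCT* (ENSG00000006625, chromosome 7, 30496621 to 30504841, minus strand), a cyclotransferase that acts on gamma-glutamyl amino acids, was not called in any comparison. Its counts were 2658 and 2674 in 0X-Cys, 2767, 2641, 2406 and 2975 in 1X-Cys, and 2499, 2563, 2545 and 2552 in 10X-Cys. The 1X-Cys range covered all other libraries. The 95% intervals of the log2 change were -0.18 to 0.15 for 0X-Cys and -0.20 to 0.04 for 10X-Cys, both against 1X-Cys. A gene on the same strand shares 27.7% of its exon bases. Reads over these bases may be missing from the count, as the methods describe, or mixed with those of the other gene.

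*OPLAH* (ENSG00000178814, chromosome 8, 144051266 to 144063965, minus strand), the 5-oxoprolinase that opens the product of the cyclotransferases, was barely detected and was not tested. The libraries held 2 and 0 reads in 0X-Cys, 1, 1, 2 and 2 in 1X-Cys, and 10, 2, 4 and 4 in 10X-Cys. No fold is given at this depth, and the 0 in 1 library allows a normalized count of up to 3.27 for counting error alone.

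*GGT7* (ENSG00000131067, chromosome 20, 34844720 to 34872856, minus strand), of the gamma-glutamyltransferase family, had counts of 1868 and 1979 in 0X-Cys, 1579, 1701, 1695 and 1702 in 1X-Cys, and 1714, 1679, 1735 and 1714 in 10X-Cys. The 0X-Cys libraries lay above the others, whose ranges overlapped. The log2 change in 0X-Cys was 0.20 (interval 0.06 to 0.35, adjusted p = 0.0357, limma), above the threshold. In 10X-Cys it was 0.04 (interval -0.07 to 0.14) against 1X-Cys. Against 0X-Cys it was -0.17 (adjusted p = 0.00658), a call lost under 11 of 20 alternatives with adjusted p up to 0.13. Those include leaving out 0X-Cys replicate 2 (0.109) or 10X-Cys replicate 1 (0.0115), 2 (0.0146), 3 (0.01, just above the threshold before rounding) or 4 (0.0119).

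*ABCC1* (ENSG00000103222, chromosome 16, 15949138 to 16143257, plus strand), a transporter that exports glutathione and its conjugates, had counts of 3328 and 3473 in 0X-Cys, 3825, 4006, 3645 and 3563 in 1X-Cys, and 3176, 3382, 3497 and 3408 in 10X-Cys. All 1X-Cys libraries lay above the others. The log2 change in 10X-Cys was -0.16 (SE 0.0476, adjusted p = 0.00884, limma), but this call was lost under 12 of 22 alternatives, among them leaving out 1X-Cys replicate 1 or 2 or any 10X-Cys library (adjusted p 0.0106 to 0.0401). The change in 0X-Cys was -0.14 (interval -0.28 to -0.01, adjusted p = 0.103).

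The levels per kilobase of exon gave an order of the genes within a medium. The length is that of all annotated exons merged, used in these cells or not, so the order depends on the annotation. Bases shared with other genes stay in the length, though reads over them may have been discarded. In 1X-Cys, *GGCT* was highest at 1692 ± 149 normalized counts per kilobase (SD, n = 4), followed by *GSR* at 877 ± 13.9. *GGT7* and *CHAC2*, at 564 ± 20.4 and 548 ± 55.1, overlapped in range. *ABCC1* at 430 ± 22.6, *GSS* at 338 ± 10.8, *GCLM* at 284 ± 18.6, *GCLC* at 260 ± 5.11 and *CHAC1* at 229 ± 37.6 followed. In 10X-Cys *CHAC1* at 932 ± 62.4 and *GCLM* at 896 ± 36.1 overlapped and stood just below *GSR* at 1118 ± 13.0, and *GSS* was the lowest of the 9 genes tested at 221 ± 10.8. In 0X-Cys *CHAC1* stood second at 906 ± 4.08 (n = 2), and *GCLC* was lowest at 244 ± 3.75.

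Over the 10 libraries, the genes with patterns nearest to *CHAC1* were *ADM2*, *RAPGEF3* and *ULBP1*, with root mean square differences of 0.197, 0.200 and 0.232 in log2 value relative to 1X-Cys, among 14551 genes compared. Those nearest to *GCLM* were *ZBTB21*, *FOXI3* and *ZNF654*, with differences of 0.105, 0.116 and 0.122. This is a description of likeness in these libraries.

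The other genes of glutathione use fell in 10X-Cys more often than they rose. Of 58 such genes 40 were tested, and 29 were called against 1X-Cys, 5 higher and 24 lower, with a median log2 change of -0.51 beside 0.01 over all genes, of which 23.1% were called higher and 22.9% lower. In 0X-Cys 11 were called, 7 higher and 4 lower, with a median of 0.02, beside 15.9% of all genes called (7.39% higher and 8.51% lower). Without 0X-Cys replicate 1 or without 0X-Cys replicate 2, the count in 0X-Cys was 3. Directly between 10X-Cys and 0X-Cys 31 were called, 5 higher and 26 lower, beside 24.4% and 23.6% of all genes.

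The glutathione transferases, which conjugate glutathione to other molecules, had 13 of 16 tested genes lower in 10X-Cys and none higher, where 22.9% of all genes were lower and 23.1% higher. *GSTM1* fell to 37.1% of 1X-Cys (log2 change -1.43, SE 0.102, adjusted p = 3.42e-09, limma) and *GSTM2* to 41.3% (log2 change -1.27, SE 0.0603, adjusted p = 2.11e-11). Genes of this cluster are similar in sequence, so some of their reads may be split uncertainly. In 0X-Cys, where 7.39% of all genes were higher and 8.51% lower, 4 transferases were higher and none lower, among them *GSTO2* (1.97-fold, log2 change 0.98, SE 0.125, adjusted p = 9.5e-05) and *GSTZ1* (1.36-fold, log2 change 0.45, adjusted p = 0.00223).

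Of 4 genes tested from the glutathione peroxidase family, 3 were lower in 10X-Cys, beside 22.9% of all genes. *GPX1* fell to 52.3% of 1X-Cys (log2 change -0.94, SE 0.0564, adjusted p = 4.02e-10, limma) and *GPX4*, which protects membrane lipids, to 59.3% (log2 change -0.75, SE 0.0397, adjusted p = 7.65e-11). In 0X-Cys 1 was higher, *GPX8* (log2 change 0.71), and 2 were lower, *GPX1* (-0.34) and *GPX4* (-0.24), beside 7.39% and 8.51% of all genes.

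Among 8 tested genes listed under either extracellular breakdown or salvage, *GGACT*, a gamma-glutamylamine cyclotransferase, was the 1 called in 0X-Cys. It was 2.63-fold higher (log2 change 1.40, SE 0.216, adjusted p = 0.000389, limma). In 10X-Cys 1 was higher, *GGT1* (log2 change 0.65), which has close copies, and 3 were lower, among them *LAP3*, a leucine aminopeptidase (-0.90). These counts, 1 of 8 and 4 of 8, lay near the shares of all genes called, 15.9% in 0X-Cys and 46.0% in 10X-Cys. Of 7 glutaredoxins and glyoxalases, 3 were higher and 3 lower in 10X-Cys, with *GLRX5*, of iron-sulfur cluster transfer, at -0.79. In 0X-Cys 1 was higher, *HAGH* (0.41), and 2 were lower, among them *GLO1* (-0.54). Of 5 other transporters, limma called 0 in 0X-Cys (2 at an unadjusted p under 0.05, 0 by edgeR and 1 by DESeq2), and 1 was higher and 2 lower in 10X-Cys, among them *SLC25A39*, the mitochondrial glutathione importer (-0.58).

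**Figure D4:**
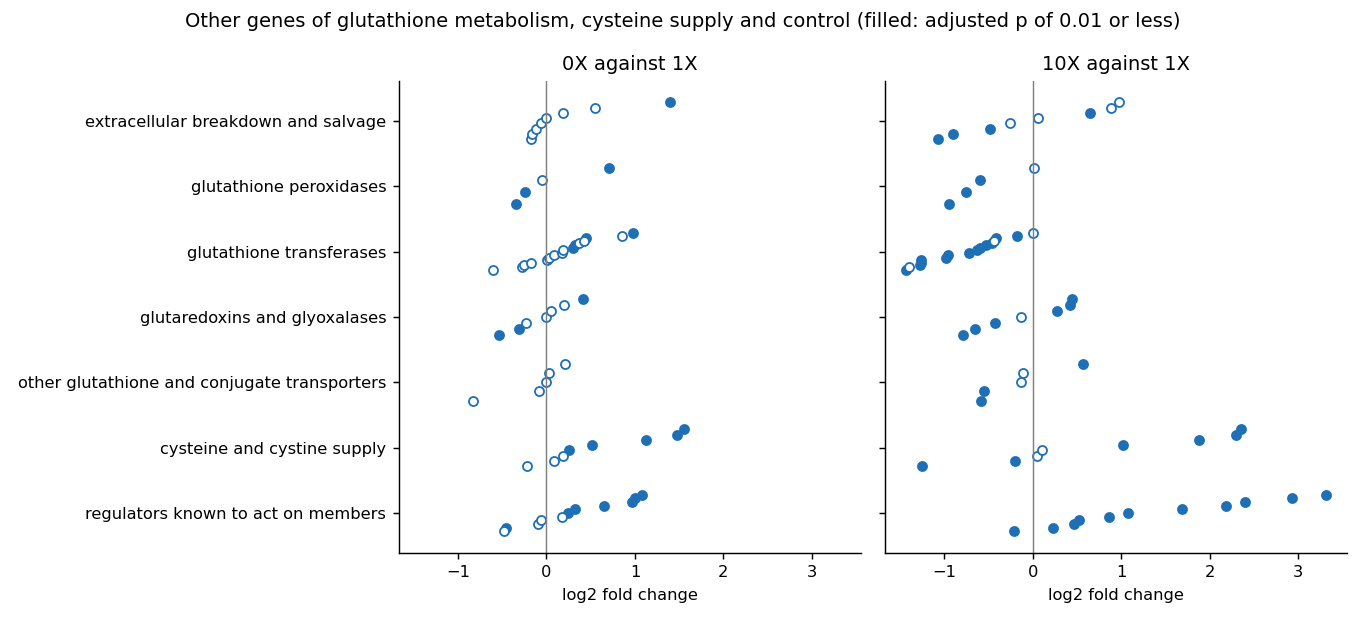
Log2 fold change of the other tested genes of glutathione metabolism, cysteine supply and control, by list, for 0X against 1X (left) and 10X against 1X (right). Each point is a gene, filled where the adjusted p is 0.01 or less. In 10X 13 of 16 transferases lay lower and called, and 10 of 11 regulators higher and called.

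Of 8 genes that supply cysteine or cystine, 5 were higher in 0X-Cys and none lower, and in 10X-Cys 4 were higher and 2 lower, or 6 and 1 with equal totals. Of all genes, 7.39% were higher and 8.51% lower in 0X-Cys, and 23.1% and 22.9% in 10X-Cys. *CTH*, which makes cysteine from cystathionine, was 2.93-fold higher in 0X-Cys (log2 change 1.55, SE 0.0804, adjusted p = 3.94e-08, limma) and 4.93-fold higher in 10X-Cys (log2 change 2.30, adjusted p = 6.13e-15). *SLC1A4*, a neutral amino acid carrier, was 2.79-fold and 5.12-fold higher. Of 11 regulators listed as acting on some of the 10 genes, 6 were higher and 1 lower in 0X-Cys. In 10X-Cys 10 were higher and 1 lower. *TRIB3*, an inhibitor of ATF4, was 2.11-fold higher in 0X-Cys and 9.99-fold in 10X-Cys, and *ATF3*, a stress-induced transcription factor, was 7.64-fold higher in 10X-Cys. The 1 regulator lower in 10X-Cys was *NFE2L2*, the gene of NRF2 (log2 change -0.21, adjusted p = 0.000102, limma).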

How the data were processed

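Poly(A) RNA of 10 HEK293T libraries was sequenced with a strand-marking kit. The authors aligned reads with STAR 2.7.10b to GRCh38, counted them per Ensembl gene and divided by a DESeq2 size factor, and the deposited signal values are these normalized counts. The methods name featureCounts, with reads over several genes discarded, while the submitters' processing notes name HTSeq. The Ensembl release and strand setting were not given in the sources used here.

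All values were whole multiples of 1 step per library within a tolerance of 0.1 reads, so reads were recovered (34836014 to 61654861 per library). Replicates differed by more than sampling noise, with a chi-square per degree of freedom of 3.53 to 14.7. Labels call them biological replicates, and the methods describe independent replicates and wells seeded in parallel. Whether they came from separate days or passages was not given in the sources used here. Of 78894 IDs, 61463 were in GENCODE 44 and 42165 had a symbol. Genes with 10 or more in at least 3 of 10 libraries were kept (29045). Log2(value + 1) was fitted with limma 3.58.1 (R 4.3.3, trend, 2-sided, Benjamini-Hochberg), each comparison on its own groups. Fold changes are on this scale. Ratios were tested with the exact permutation test of scipy 1.17.1, which doubles the smaller tail.

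The fitting procedure was tested on simulated data with few genes changed and the library scaling known, so the scaling itself was not tested. The alternatives were pseudocounts of 0.5 and 10, other filters and scalings, all groups in one fit, a replicate block, edgeR 4.0.16 and DESeq2 1.42.0 on recovered reads, other thresholds, and leaving out each library. Subtraction of overlapping genes and a permutation p from absolute differences were added after seeing the data. Besides the 10 genes, the text names in each list and comparison at most the 2 largest changes among called genes whose higher group averaged at least 100, and the 3 nearest patterns of *CHAC1* and *GCLM*. *GPX4* in 0X-Cys and *NFE2L2* were named outside the rule, after their values were seen, beside counts of 2 and 1. Members and lists were chosen with earlier results of these data known.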

Additional observations from a re-analysis of the deposited data

Results flagged for a closer look

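In 22 groups of 4 libraries examined (9 genes and 2 ratios in 1X-Cys and 10X-Cys), 2 values stood far from the others of their group. Chance gives about 1 in 20 groups, and 2 among 22 is not far from this rate. The groups share genes and libraries, so they are not independent. *GCLC* in 1X-Cys replicate 1 was highest at 2306, with the other libraries between 2215 and 2220, a gap of 0.941 of the range. *GGT7* in 1X-Cys replicate 1 was lowest at 1579, with the others between 1695 and 1702, a gap of 0.947 of the range. Both values come from the same library.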

How the results depend on the processing

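Of the 10 genes, *GCLM* and *CHAC1* in 10X-Cys against 1X-Cys and *GCLM* and *GSS* in 10X-Cys against 0X-Cys kept direction and call under each alternative run. With a 2-fold change required as well, the genes called fell from 4 to 1 in 0X-Cys against 1X-Cys, from 7 to 2 in 10X-Cys against 1X-Cys and from 6 to 2 in 10X-Cys against 0X-Cys. The other glutathione genes called fell from 11 to 1, from 29 to 5 and from 31 to 9, and all genes called from 4618 to 609, from 13372 to 2942 and from 13954 to 3610. With no filter on low values, limma called 0 of the 10 genes in 0X-Cys against 1X-Cys (6 at an unadjusted p under 0.05, where edgeR and DESeq2 on filtered reads called 4 each), 2 other glutathione genes and 390 of all genes, and 6877 of all genes in 10X-Cys against 0X-Cys. The cause was not tested. At an adjusted p of 0.05, 17 other glutathione genes and 7987 of all genes were called in 0X-Cys against 1X-Cys. Leaving out 1 library gave 2 to 4 of the 10 genes, 3 to 13 other glutathione genes and 978 to 6300 of all genes in that comparison. It was 2 without 0X-Cys replicate 2, and the other glutathione genes were 3 without either 0X-Cys library. For all genes the count was 1198 without 0X-Cys replicate 1, 978 without 0X-Cys replicate 2, 2968 without 1X-Cys replicate 1 and 2795 without 1X-Cys replicate 2. With 1 library left in 0X-Cys, it is assumed to vary like the 1X-Cys libraries.

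Values near 0 changed sign. *GGCT* in 0X-Cys against 1X-Cys was 0.01 with equal totals, 0.02 with equal totals over nuclear genes, 0.03 with quantile normalization and -0.07 to 0.04 with 1 library left out. With equal totals *GGCT* was 0.02 in 10X-Cys against 1X-Cys and 0.01 against 0X-Cys, and *ABCC1* in 10X-Cys against 0X-Cys was 0.07, with -0.05 to 0.02 when 1 library was left out. *CHAC1* in 10X-Cys against 0X-Cys was 0.00 to 0.07 with 1 library left out and -0.04 with the replicate block.

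In 10X-Cys against 1X-Cys, leaving out 1 library gave log2 differences of 1.02 to 1.07 for the *GCLM* to *GCLC* ratio and 2.18 to 2.44 for the *CHAC1* to *CHAC2* ratio. With 3 libraries against 4 the exact permutation test cannot go below p = 0.0571, so neither passed 0.05 by construction. A 2-sided p from absolute differences, added after seeing the data, was 0.067 rather than 0.13 for 2 libraries against 4 in the exact permutation test and moved no ratio past 0.05.

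Same-numbered libraries did not deviate together (correlations of -0.116 to 0.103), so the numbers were not taken to pair the samples. With the replicate block 4, 6 and 5 of the 10 genes were called in the 3 comparisons, and 6532, 13392 and 12393 of all genes. Depth kept *OPLAH* from being tested.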
